A study of Drosophila melanogaster with 3 samples.

Results

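The regions described here are the ORC2 peaks beside the centromeres of 4 chromosome arms of Drosophila melanogaster. They were chosen by position alone: a peak belongs when its midpoint lies above 21000000 on 2L, above 22500000 on 3L, above 20400000 on the X, or below 2050000 on 3R, in coordinates of FlyBase release 5. By this rule 372 of the 8494 peaks of replicate 1 and 256 of the 5905 peaks of replicate 2 belonged. Peaks of both lists that overlapped by at least 1 bp were joined into 1 site, which gave 446 sites of 9799 in the whole data set: 116 on 2L, 73 on 3L, 100 on the X and 157 on 3R. No site straddled a boundary of the rule. The values below compare these stretches of about 2 Mb with the rest of the same arm.

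The cells were ML-DmBG3-c2 (BG3), a line derived from the nervous system of larvae in the third instar and grown asynchronously. Per the labels their genotype is y v f mal and their sex is unknown, and these hold for every library. Chromatin was cross-linked and immunoprecipitated with a crude rabbit polyclonal serum raised against the full-length ORC2 protein (dORC2), in 2 libraries from differently numbered extractions, and 1 input DNA library stands beside them. Nothing in the labels says that the 2 ChIP libraries came from separate cultures, so the spread between them may be technical. Peak lists cannot show cell identity, so the label of the line was not checked.

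ORC2 belongs to the origin recognition complex (ORC), which binds chromatin in late mitosis and G1 and there loads the MCM helicase that later opens replication origins. In flies ORC shows little preference for a DNA sequence and tends to sit in open chromatin, such as that at the promoters of active genes. Toward the centromere each large arm passes from gene-rich euchromatin into pericentric heterochromatin, which is rich in satellite and transposon sequence, carries HP1 and replicates late in S phase. Drosophila ORC is also known to associate with HP1. The assembled arm ends within this heterochromatin, so distance is counted here from the last assembled stretch that held a peak and not from the centromere itself.

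On 2L, 3L and the X the centromere side is at the high coordinates, and the stretches ran from the boundary to the outermost peak of any list, over 1.97 Mb, 2.03 Mb and 2.02 Mb. On 3R it is at the low coordinates, and the stretch of 2.05 Mb began at base 1. The first 3R peak starts at 46597, so the innermost bin of 3R is not measured quite like those of the other arms. Read depth is unknown, because the lists hold no counts. All intervals are exact 95% intervals for counting error alone, with each peak taken as a separate event. With 1 group of 2 libraries no test over samples can pass a threshold (the smallest two-sided p of an exact paired permutation is 0.5), so no p-values are given and differences are set against the replicates and these intervals.

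**Figure D1:**
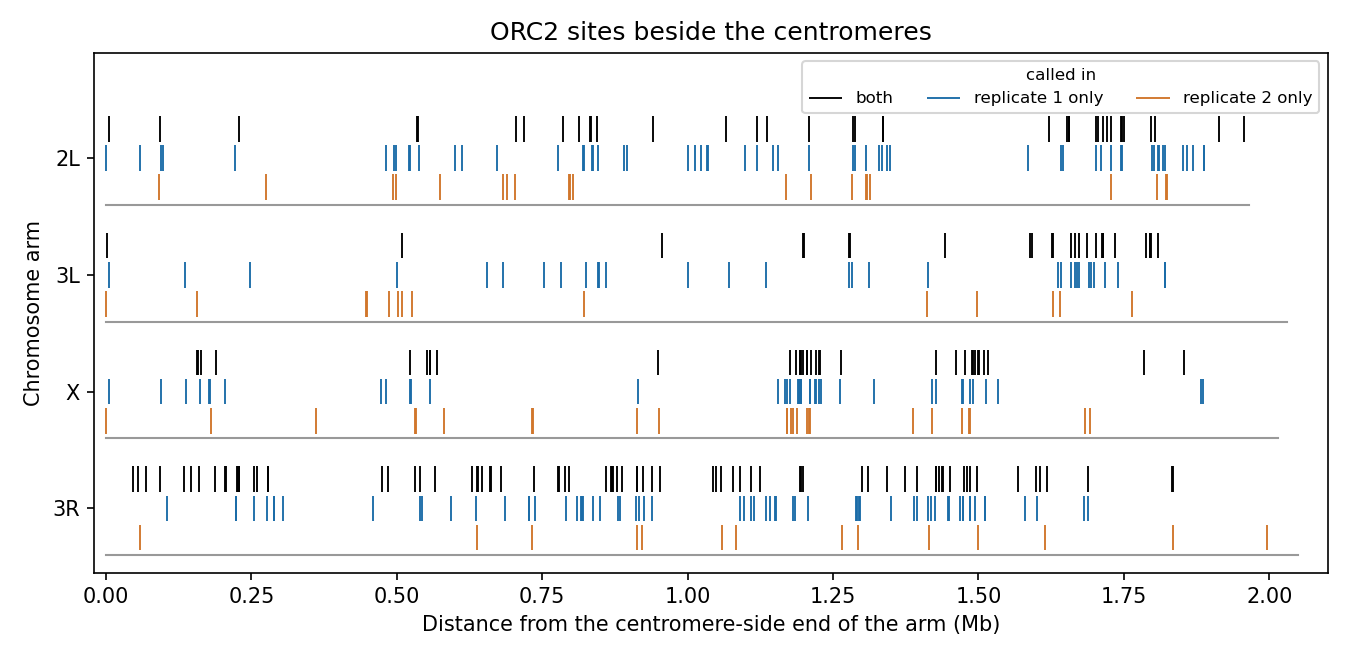
Each tick is 1 ORC2 site beside the centromere, placed by its distance in Mb from the centromere-side end of the arm (x axis) for arms 2L, 3L, X and 3R (y axis), in 3 rows by whether it was called in both replicates or in 1 of them; the grey line is the stretch that the rule covers. The 27 sites of 3L called in both replicates crowd toward its outer edge, and the 78 of 3R lie along nearly the whole stretch.

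ORC2 peaks were sparse beside the centromere on 3 of the 4 arms, and the deficit was deepest on 3L. On 3L, replicate 1 had 59 peaks in the stretch, or 29.1 per Mb, against 76.5 per Mb in the rest of the arm. Replicate 2 had 42 peaks there, or 20.7 per Mb against 51.8. The 3L density ratio of stretch to rest was 0.380 (95% interval 0.288 to 0.492) in replicate 1 and 0.399 (0.286 to 0.543) in replicate 2, with a mean of 0.389 ± 0.0138 (SD, n = 2). The replicates thus gave nearly the same ratio although their lists differ in length.

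On the X, replicate 1 had 75 peaks beside the centromere, or 37.2 per Mb against 72.7 in the rest. Replicate 2 had 61 peaks, or 30.3 per Mb against 51.6. The ratios were 0.512 (0.400 to 0.645) and 0.586 (0.445 to 0.759), with a mean of 0.549 ± 0.0529 (SD, n = 2). The interval of each replicate lay below 1.

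On 2L the deficit was shallower. Replicate 1 had 95 peaks in the stretch, or 48.3 per Mb against 63.5 in the rest, and replicate 2 had 59 peaks, or 30.01 per Mb against 45.9. The ratios were 0.761 (0.611 to 0.937) and 0.654 (0.494 to 0.851), with a mean of 0.707 ± 0.0756 (SD, n = 2).

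On 3R no deficit was detectable. Replicate 1 had 143 peaks beside the centromere, or 69.8 per Mb against 68.1 in the rest, and replicate 2 had 94 peaks, or 45.9 per Mb against 47.6. The ratios were 1.02 (0.857 to 1.21) and 0.964 (0.773 to 1.19), with a mean of 0.994 ± 0.0421 (SD, n = 2). In each replicate the 3R interval lay wholly above the intervals of 3L and X, while it overlapped that of 2L.

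**Figure D2:**
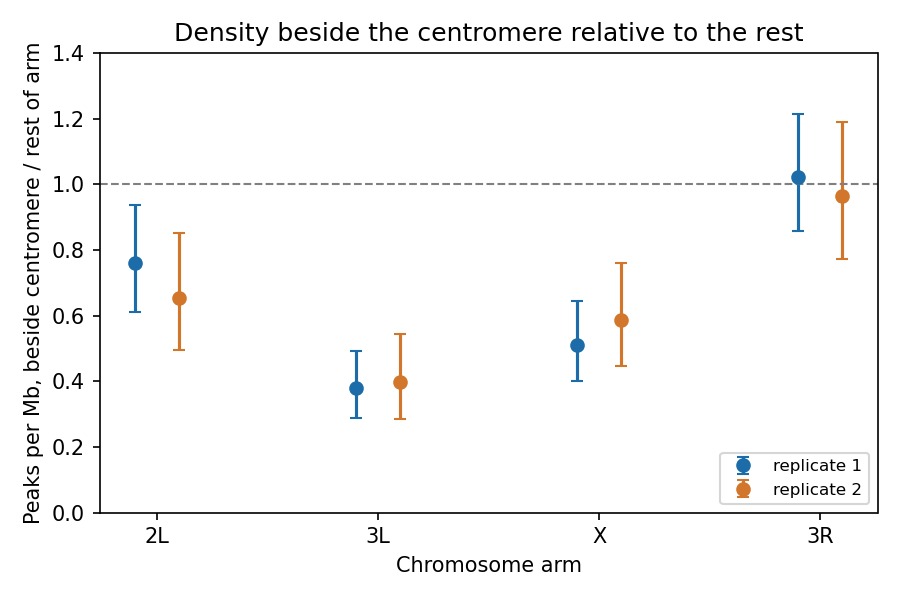
Points give the density of ORC2 peaks beside the centromere divided by that in the rest of the same arm (y axis, ratio) for arms 2L, 3L, X and 3R (x axis) in each replicate; bars are exact 95% intervals and the dashed line marks 1. The points of 3L are the lowest, at 0.380 and 0.399, and those of 3R stand at 1.02 and 0.964.

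The bases covered by peaks were also fewer beside the centromeres of 2L, 3L and the X. Beside the centromere the covered length per Mb was 0.619 times that of the rest on 2L in replicate 1 and 0.622 times in replicate 2, lower than the ratios of peak counts, 0.761 and 0.654. It was 0.399 and 0.382 times on 3L. On the X it was 0.406 and 0.441 times, again lower than the count ratios. On 3R it was 1.08 and 0.962 times.

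Peaks are unevenly spread everywhere along these arms, so the rest of each arm was also cut, from the boundary outward, into adjoining windows as long as the stretch, a description added after the values above were seen. The rest of 3L held 11 such windows with 116 to 209 replicate 1 peaks and 70 to 140 replicate 2 peaks, against 59 and 42 beside the centromere. The 10 windows of the X held 123 to 183 and 82 to 122 peaks, against 75 and 61. On 2L the 10 windows held 96 to 144 and 61 to 108 peaks, against 95 and 59. The stretch beside the centromere thus held fewer peaks than every window of this 1 tiling on these 3 arms in both replicates. On 2L the margin was 1 peak in replicate 1 and 2 in replicate 2, so that it may not hold for windows cut elsewhere. On 3R 7 of 12 windows held fewer replicate 1 peaks and 6 of 12 held fewer replicate 2 peaks, which puts the 3R stretch in the middle of its arm.

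Within the stretches the density differed between bins of 500 kb, and each arm had its own course from the centromere-side end. On 3L the first 3 bins were all sparse: replicate 1 had 4, 11 and 12 peaks and replicate 2 had 6, 6 and 7 from the inside outward. The fourth 3L bin then held 32 and 23 peaks, which is 0.836 and 0.888 times the density of the rest of the arm. In bins of 250 kb these peaks formed an island: from 1.5 to 1.75 Mb replicate 1 had 25 peaks and replicate 2 had 17, each 1.31 times the density of the rest, and the next bin held 7 and 6, or 0.366 and 0.463 times. Beyond the boundary 3L remained below the mean of its arm, at 0.706 and 0.579 times from 2 to 2.5 Mb.

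On 2L the innermost bin held 11 replicate 1 peaks and 7 replicate 2 peaks, or 0.346 and 0.305 times the density of the rest. The second bin stood at 0.756 and 0.784 times and the third at 0.787 and 0.610 times. In the fourth, which reaches just past the boundary, 2L stood at 1.16 and 0.959 times. The lowest 2L density of these bins was thus in the innermost 500 kb. Sparse sequence also occurred outside the stretch. In bins of 250 kb, that from 2.25 to 2.5 Mb held 8 and 4 peaks, or 0.504 and 0.349 times the rest. The innermost bin of 250 kb held the same counts, and the next one held 3 in each replicate.

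The X too had an island of peaks between sparse bins. Its first bin held 13 and 7 peaks (0.357 and 0.271 times the rest) and its second 10 and 13 (0.275 and 0.504 times). In the third, 43 and 33 peaks were found, or 1.18 and 1.28 times the density of the rest of the X. Beyond it the fourth bin held 9 and 8 peaks, or 0.247 and 0.310 times. Both replicates showed this island between 1 and 1.5 Mb. Bins as dense also occurred outside the stretch, as from 2.5 to 3 Mb, at 1.35 and 1.36 times the density of the rest of the X.

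On 3R the 3 innermost bins held 29, 47 and 54 replicate 1 peaks and 21, 31 and 32 replicate 2 peaks. The first stood at 0.851 and 0.883 times the density of the rest, the second at 1.38 and 1.30 times and the third at 1.58 and 1.35 times. The fourth 3R bin was sparse, with 13 and 10 peaks or 0.382 and 0.421 times. The density of 3R near that of its arm was thus the sum of a dense part and of a sparse part farther from the centromere. Outside the stretch 3R bins also varied, from 1.32 and 1.18 times at 2.5 to 3 Mb to 0.558 and 0.421 times at 3 to 3.5 Mb. A tie of this course to the centromere was not tested.

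**Figure D3:**
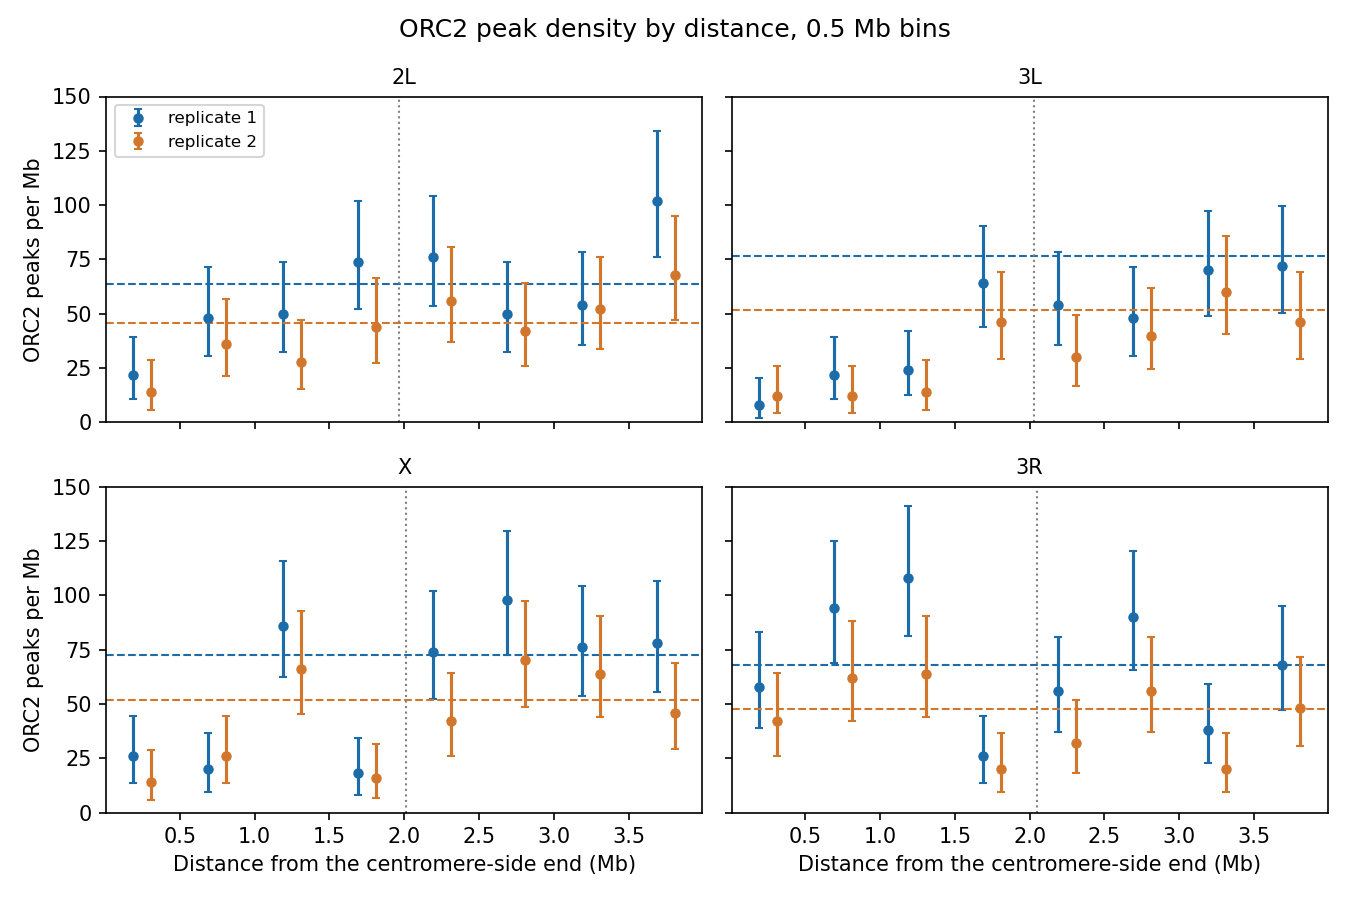
ORC2 peaks per Mb (y axis) in bins of 500 kb by distance in Mb from the centromere-side end (x axis), 1 panel for each arm; points are bin values of each replicate, bars are exact 95% Poisson intervals, dashed lines are the density of the rest of the arm in each replicate, and the dotted line is the boundary of the rule. The innermost bin of 3L holds 4 and 6 peaks, and the third bin of the X stands above its dashed lines.

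The median distance of a peak from the end summarises these courses. It was 1627 kb in replicate 1 and 1609 kb in replicate 2 on 3L, or 80.1% and 79.3% of the length of the stretch. On 2L it was 61.4% and 61.5% of the length, and on the X 59.5% in both replicates. On 3R the median lay at 45.02% and 44.6%, nearer to the centromere side than to the boundary.

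At a finer scale the peaks were unevenly spread over windows of 100 kb. The 3 windows fullest in the 2 lists together held 56.0% of the replicate 1 peaks and 52.5% of the replicate 2 peaks of the X stretch, in 14.9% of its length. Windows picked for their counts exceed their share of the length by that choice, and no like value was computed for the rest. On 3L the 3 windows so picked held 49.2% and 57.1%, on 2L 38.9% and 33.9%, and on 3R 35.7% and 29.8%. The same windows served for both lists, so they need not be the fullest of each. Across the windows of a stretch, Spearman's rho between the counts of the libraries was 0.813 on 2L (19 windows), 0.510 on 3L (20), 0.752 on the X (20) and 0.882 on 3R (20), a description across windows of the same 2 libraries. The variance of the window counts was 2.22 to 6.82 times their mean, so the counting intervals above are narrower than the clustering warrants. In the rest of these arms that variance was 3.04 to 4.21 times the mean. On 3L and the X the stretch lay above its rest in both replicates, on 2L below it in both, and on 3R the replicates differed. Windows empty in replicate 1 numbered 3 of 19 on 2L, 3 of 20 on 3L, 7 of 20 on the X and 2 of 20 on 3R, against 9.05%, 5.78%, 6.37% and 9.30% of the windows in the rest of these arms. In replicate 2 they numbered 4, 7, 6 and 2, against 15.2%, 7.11%, 9.80% and 13.2%.

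The island of the X lay between 1.1 and 1.3 Mb and between 1.4 and 1.5 Mb from the end. In replicate 1 its 3 windows held 42 of 75 peaks and in replicate 2 they held 32 of 61. It contained a run of 6 replicate 1 peaks each within 1 kb of the next, at 21220373 to 21223217, while the longest run of replicate 2 there was 3 peaks and the rest of the X held runs of up to 7 and 8. On 3L the longest run was 4 peaks in each replicate, against 9 and 5 in the rest of the arm, at 22816095 to 22818276 in replicate 1 and at 22816144 to 22818236 in replicate 2. Runs on 3R reached 3 peaks and those on 2L only 2, where the rest of 2L held runs of up to 7.

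Each stretch also had long intervals in which neither library had a peak. The longest on 2L was 21380083 to 21617510 (237 kb), which separated the outer crowd of peaks from the inner ones. On the X it was 21260083 to 21465038 (205 kb), on the inner flank of the island. The longest on 3L, 22500001 to 22709119 (209 kb), began at the boundary itself and continued into the rest of the arm, and the next was 24083145 to 24282449 (199 kb), deep in the sparse part. On 3R the longest was 1834378 to 1996616 (162 kb), in the sparse outer bin.

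The gap from a peak to the following one was longer beside the centromere than in the rest on 2L, 3L and 3R and shorter on the X, although with neighbours within 1 kb merged the 3R ratio turned to 0.986. Its median on 3L was 8796 bp in replicate 1, against 4215 bp in the rest, and 12001 bp in replicate 2, against 6524 bp. On 2L it was 6404 bp against 5433 bp and 10231 bp against 7793 bp. On 3R, where the density did not differ detectably, it was 6199 bp against 4782 bp and 9004 bp against 7153 bp. On the X it was 3965 bp against 4712 bp and 5127 bp against 6157 bp. The mean ratio of the medians was 1.25 ± 0.0947 on 2L, 1.96 ± 0.175 on 3L, 0.837 ± 0.00631 on the X and 1.28 ± 0.0265 on 3R (SD, n = 2). In the series list it was 2.25 on 2L and 1.18 on 3L.

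Set against the mean spacing, these gaps separate the X from 3R. The median gap of the X stretch was 14.8% of the mean spacing in replicate 1 and 15.5% in replicate 2, against 34.3% and 31.8% in the rest of the X. Its typical gap was thus short for its density. The nearer of the neighbours of an X peak was no closer, at a median of 1704 bp against 1544 bp in replicate 1 and 2428 bp against 2065 bp in replicate 2. On 3R it was 43.2% and 41.3%, against 32.6% and 34.0%, a longer typical gap at a like density. Window counts of 100 kb gave no such order on 3R: their variance over mean was 4.21 in replicate 1, against 3.72 in the rest, and 2.22 in replicate 2, against 3.14. The 3L values were 25.6% and 24.8%, against 32.3% and 33.8%, and those of 2L 30.9% and 30.7%, against 34.5% and 35.8%.

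A neighbour within 1 kb was found for 31.6% of the replicate 1 peaks beside the 2L centromere (95% exact interval 22.4 to 41.9), against 40.9% in the rest, and for 23.7% of the replicate 2 peaks (13.6 to 36.6), against 36.9%. On 3R the shares were 32.9% (25.2 to 41.2) against 42.4% and 27.7% (18.9 to 37.8) against 39.4%. On the X they were 38.7% against 42.3% and 32.8% against 36.3%. The replicates went opposite ways on 3L, with 33.9% against 45.4% in replicate 1 and 40.5% against 35.9% in replicate 2.

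Peak width differed little beside the centromere. The median width was 86 bp on 2L in replicate 1, against 112.5 bp in the rest, but 98 bp against 100 bp in replicate 2. On 3L it was 100 bp in both parts in replicate 1 and 80.0 bp against 99 bp in replicate 2. The X stretch had 93 bp against 100 bp and 85 bp against 93 bp, and 3R had 114 bp against 108 bp and 112.5 bp against 101 bp. The mean ratio of medians was 0.872 ± 0.152 on 2L, 0.904 ± 0.136 on 3L, 0.922 ± 0.0113 on the X and 1.08 ± 0.0412 on 3R (SD, n = 2). On the X both ratios, 0.930 and 0.914, lay farther from 1 than from each other; on 3R both lay above 1, at 1.06 and 1.11. Peaks of 30 bp or less made up 11.9% to 31.0% of the peaks of a stretch and 14.1% to 19.5% of those in the rest, and the exact interval of each stretch held the value of its rest except that of 3L in replicate 2, where 31.0% (17.6 to 47.1) were so narrow, against 16.6% (14.5 to 18.8).

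The score is the authors' own value for each peak. The deposited files do not name its quantity, and it is used here to rank and describe peaks and not as a measure of binding strength. Its median in replicate 1 was 2.74 beside the 2L centromere and 2.83 in the rest of that arm. For 3L these medians were 2.79 and 2.85, for 3R 2.85 and 2.78, and for the X 3.33 in both parts. In replicate 2 the 2L medians were 3.59 and 3.01, those of 3L 2.78 and 2.84, those of the X 3.45 and 3.21, and those of 3R 3.08 and 3.15. The mean ratio of medians was 1.08 ± 0.161 on 2L, 0.980 ± 0.000451 on 3L, 1.04 ± 0.0524 on the X and 1.003 ± 0.0330 on 3R (SD, n = 2). The replicates gave opposite directions on 2L and on 3R. The lower density of 3L thus went with a score ratio near 1 in both replicates (0.980 and 0.981).

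The share of peaks called in both libraries was lower beside the centromere than in the rest in both replicates on 2L, 3L and the X, but arm by arm the intervals were apart only for replicate 1 on 2L. Over the whole lists 52.9% of replicate 1 peaks overlapped a replicate 2 peak and 77.6% of replicate 2 peaks overlapped a replicate 1 peak, and over the 4 stretches these shares were 47.6% (42.4 to 52.8) and 71.1% (65.1 to 76.6), against 53.6% (52.4 to 54.8) and 78.2% (76.9 to 79.4) in the rest of the 4 arms. The intervals of stretches and rest overlapped in replicate 1 and were narrowly apart in replicate 2. Without 3R the shares were 43.2% (36.7 to 49.9) against 52.8% (51.3 to 54.2) and 63.0% (55.03 to 70.4) against 76.8% (75.3 to 78.2). These intervals were apart in both replicates, but 3R is the arm with the smallest mean difference. Leaving it out widens the gap by that choice, so this subset adds no separate support. On 2L 37 of 95 replicate 1 peaks were shared, or 38.9% (29.1 to 49.5), against 55.3% in the rest (52.6 to 58.0). Of the 59 replicate 2 peaks there 38 were shared, or 64.4% (50.9 to 76.4), against 78.3% (75.6 to 80.9).

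On 3L 45.8% (32.7 to 59.2) of replicate 1 peaks and 66.7% (50.5 to 80.4) of replicate 2 peaks were shared, against 53.6% and 80.2% in the rest. On the X the shares were 46.7% (35.0 to 58.6) against 49.5% and 59.02% (45.7 to 71.4) against 71.6%. On 3R they were 54.5% (46.01 to 62.9) against 55.8% and 85.1% (76.3 to 91.6) against 81.9%. The mean difference was -15.1 ± 1.74 percentage points on 2L, -10.7 ± 4.02 on 3L, -7.69 ± 6.93 on the X and 0.988 ± 3.20 on 3R (SD, n = 2). With a reciprocal overlap of 50% it was -25.4 points on 3L, and on 3R it changed sign, to -4.52.

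**Figure D4:**
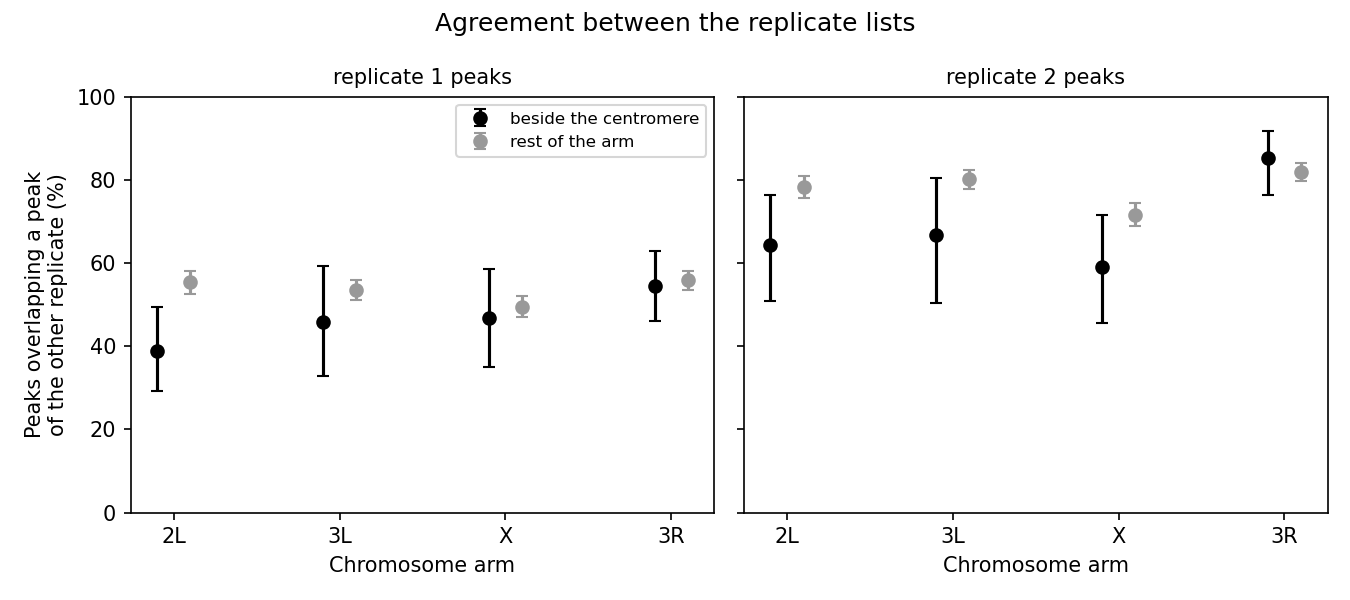
Percentage of the ORC2 peaks of each replicate (1 panel each) that overlap a peak of the other replicate (y axis) on arms 2L, 3L, X and 3R (x axis), beside the centromere and in the rest of the arm; bars are exact 95% intervals. On 2L the replicate 1 values are 38.9% beside the centromere and 55.3% in the rest.

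Narrow peaks were shared less often than wide ones in both parts, so the agreement was also set beside what the widths alone would give. The shares of the rest of the arm in 5 bins of width were applied to the peaks of each stretch. On 2L this gave 46.4% for replicate 1, against 38.9% observed, and 76.05% for replicate 2, against 64.4%. On 3L it gave 53.1% and 72.8%, against 45.8% and 66.7%. The X values were 44.9% and 69.2%, against 46.7% and 59.02% observed, and those of 3R were 56.6% and 83.4%, against 54.5% and 85.1%. The observed share was thus below the value given by the widths in both replicates on 2L and 3L, in replicate 2 alone on the X and in replicate 1 alone on 3R. On every arm and in both replicates the value given by the widths lay inside the exact interval of the observed share. Arm by arm, none of these differences thus exceeded counting error, but with 42 to 143 peaks per stretch the intervals were wide. Over the 4 stretches, peaks of the widest bin were shared in 90.3% of cases in replicate 1 (81.0 to 96.0), against 90.3% in the rest, and in 92.9% in replicate 2 (80.5 to 98.5), against 98.2%. Among narrower peaks of replicate 1 the second bin had 14.5% (7.70 to 23.9), against 28.2% (25.7 to 30.8), with the intervals apart. The narrowest went the other way, with 17.3% (9.78 to 27.3), against 10.7%. The largest gap in replicate 2 was in its middle bin, with 75.6% (60.5 to 87.1), against 87.2% (84.8 to 89.4).

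The shared percentage also differed with distance on 3L. Of the replicate 2 peaks in its 4 bins from the inside outward, 16.7%, 33.3%, 71.4% and 87.0% were shared, and of the replicate 1 peaks 25%, 18.2%, 41.7% and 59.4%. These rest on as few as 4 and 6 peaks in the innermost bin. On 3R the innermost bin had the highest shares of the stretch, 69.0% of 29 replicate 1 peaks and 95.2% of 21 replicate 2 peaks. The inner bins thus had the lowest shares on 3L, while the innermost had the highest on 3R.

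In terms of sites, 177 of the 446 beside the centromeres were called in both libraries, or 39.7% (35.1 to 44.4), against 46.4% (45.3 to 47.6) of the 7250 in the rest of the 4 arms. There were 37 such sites on 2L, 27 on 3L, 35 on the X and 78 on 3R. A further 195 sites were called in replicate 1 alone and 74 in replicate 2 alone. As a description across shared sites of the same 2 libraries, the scores of the libraries had a Spearman's rho of 0.821 on 2L, 0.636 on 3L, 0.594 on the X and 0.760 on 3R, against 0.724, 0.785, 0.781 and 0.776 in the rest. Replicate 2 scored above replicate 1 at 67.6% of the shared sites of the 2L stretch, against 42.7% in the rest, and at 29.6% of those of the 3L stretch, against 32.0%.

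**Figure D5:**
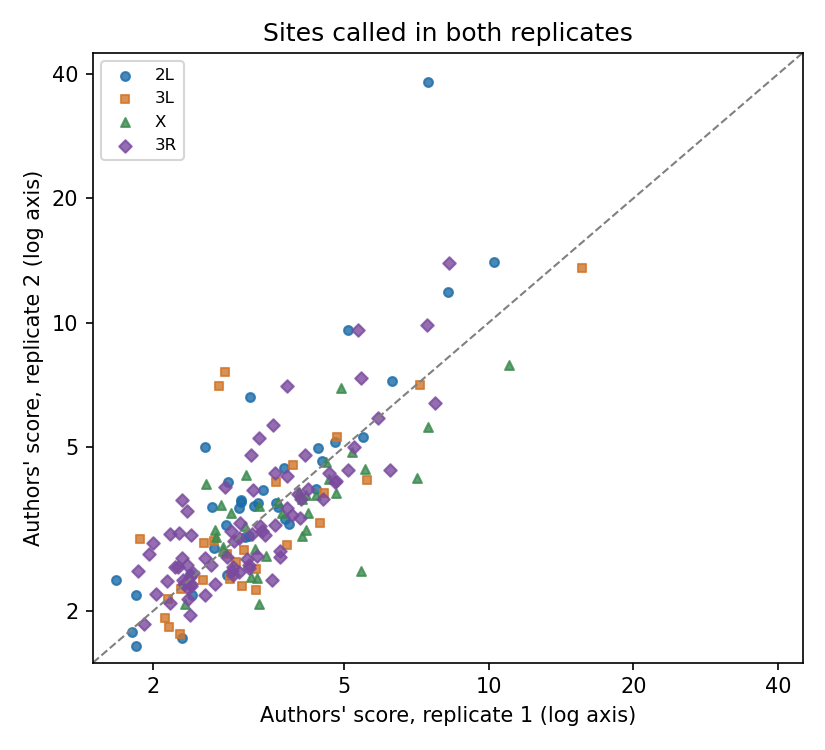
Authors' score of the 177 sites beside the centromeres that were called in both libraries, replicate 1 (x axis, log scale) against replicate 2 (y axis, log scale), marked by arm; the dashed line is equality. The 2L site farthest above the line scored 7.48 in replicate 1 and 38.3 in replicate 2, where its peak was 3 bp wide.

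The highest-scoring shared sites did not lie at 1 distance from the end. On 3L the first, at 24529162 to 24529277 (116 bp), lay 1.27 kb from the end, in the sparsest bin, and scored 15.7 in replicate 1 and 13.5 in replicate 2. On 2L the site at 22961107 to 22961237 (131 bp), 4.67 kb from the end, scored 10.3 and 14.0. It was second to a 13 bp site at 22247855 to 22247867, which scored 7.48 and 38.3. The replicate 2 peak of that site was only 3 bp wide. The third on 2L, at 21344261 to 21344318 (58 bp), scored 8.22 and 11.8. Sparse sequence at the ends of 2L and 3L thus held single high-scoring sites that both libraries called.

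On 3L the next scores were much lower and came from neighbouring sites at 23332334 to 23332429 (7.20 and 7.05) and at 23331156 to 23331339 (2.82 and 7.57). On the X the first was 20954410 to 20954549 (140 bp), in the outer part of the island, with 11.02 and 7.89. It was followed by 21221202 to 21221426 (225 bp), inside the run of 6 peaks, with 7.49 and 5.595, and by 20906387 to 20906530 (144 bp) with 4.91 and 6.95. On 3R the first pair lay close together, at 788446 to 788607 (162 bp) with 8.27 and 13.9 and at 796463 to 796823 (361 bp) with 7.43 and 9.88. The third on 3R was 225721 to 225782 (62 bp), with 5.34 and 9.60.

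The widest shared sites did not have the highest scores. On 2L they measured 1040 bp (21828083 to 21829122, scores 2.85 and 2.45) and 734 bp (22260980 to 22261713, 3.77 and 3.35). On 3L they measured 921 bp (22941095 to 22942015, 4.54 and 3.86) and 863 bp (22828214 to 22829076, 4.45 and 3.27), both in the dense outer bin and above the upper quartile of replicate 1 scores in the stretch, 3.47. In replicate 2 both scored below the upper quartile of that list in the stretch, 4.42. The widest on 3R were 739 bp (278966 to 279704, 2.90 and 3.13) and 724 bp (736205 to 736928, 3.16 and 2.54). The X lacked such wide sites, with 469 bp (20913949 to 20914417, 2.58 and 4.07) and 451 bp (21195012 to 21195462, 3.33 and 2.08) at most.

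The sites nearest to the end were mostly called in 1 library, as were those of the stretches as a whole, where 195 and 74 of 446 were; on 2L, 3L and the X the first of them defines the end, so its distance of about 0 is built in. On 2L the 10 bp site at 22965831 to 22965840 and the 91 bp site at 22906717 to 22906807 were called in replicate 1 alone, with scores of 3.44 and 1.90, on either side of the shared site at 4.67 kb. On 3L the site at 24530235 to 24530494 was called in replicate 2 alone (7.40) and that at 24524719 to 24524802 in replicate 1 alone (3.48). On the X none of the 3 nearest was shared: 22415302 to 22415370 was called in replicate 2 (2.995), and 22409457 to 22409539 (3.40) and 22321051 to 22321063 (4.73) in replicate 1. On 3R the 2 nearest were shared, at 46597 to 46761 (2.92 and 2.50) and 54849 to 54985 (3.55 and 5.63), and the third, a single base at 58136, was called in replicate 2 alone (8.39).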

How the data were processed

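ORC2 ChIP-seq peaks of BG3 cells were deposited as 1 list for each of 2 ChIP libraries and 1 list for the series. The input library had no list. Per the file headers the coordinates are FlyBase release 5, and per the source field peaks were called with PeakSeq in each library. The sources used here do not give the aligner, the thresholds or the role of the input in the calls. The score in the deposited lists is the authors' value per peak, of unstated meaning, and depth is unknown. From the lists, densities, gaps, widths, median scores and overlaps (at least 1 bp) were computed with Python 3.11.15, numpy 2.4.6, pandas 2.3.3 and scipy 1.17.1, on code tested on simulated lists; figures used matplotlib 3.10.9. Intervals are exact (Clopper-Pearson for shares, conditional binomial for density ratios, Poisson for bins). Mappability of these spans was not analysed, and no sequence or gene annotation of release 5 was used.

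The members, measures and rules for named sites were chosen with earlier results of these data known. Named for each arm were the 3 highest-scoring and 2 widest shared sites, the 3 sites nearest to the end and the longest empty stretch. The windows of equal length, the windows of 100 kb, the runs, the covered bases and the score limit of 10 were added after values were seen. Alternatives were a score above the list's median, a width of at least 50 bp, merging of neighbours within 1 kb, the series list, a boundary moved by 500 kb, bins of 250 kb, a reciprocal overlap of 50% and each replicate alone.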

Additional observations from a re-analysis of the deposited data

How the results depend on the processing

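On 2L, 3L and the X the density ratio stayed below 1 in every alternative run. It moved by more than the SD of the replicates with the series list (0.538 on 2L, 0.325 on 3L, 0.485 on the X), with the boundary moved 500 kb outward (0.830, 0.436 and 0.620), with neighbours merged on 2L (0.791), and on 3L with peaks above the median score (0.339) or of at least 50 bp (0.362). On 3R it crossed 1, at 1.02 above the median score, 1.02 from 50 bp, 1.09 merged and 1.01 in the series list, with single replicates at 0.964 to 1.02. The innermost bin stood at a mean of 0.326 times the rest on 2L, 0.168 on 3L, 0.314 on the X and 0.867 on 3R; with bins of 250 kb it was 0.426 on 2L, 0.535 on the X and, crossing 1, 1.13 on 3R. The difference in agreement was -10.7 points on 2L above the median score and -25.4 on 3L with reciprocal overlap; on 3R it changed sign, to -4.52 with reciprocal overlap and -3.50 above the median score, with single replicates from -1.28 to 3.25. The gap ratio in the series list was 2.25 on 2L, 1.18 on 3L, 0.643 on the X and 1.25 on 3R, and with neighbours merged 0.758 on the X and, crossing 1, 0.986 on 3R. The width ratio above the median score was 0.861 on the X and 0.970 on 3R, the latter below 1. The score ratio from 50 bp was 0.976 on 3L and 0.982 on 3R, and crossed 1 between replicates on 2L (0.967 to 1.19) and 3R (0.980 to 1.03). The cause of these crossings was not tested. Of 52 values under these alternatives, beside the single replicates, 22 kept their direction and moved by less than the SD. A further 20 kept their direction and moved by more, and 10 changed direction. Some that changed direction also moved by less than the SD. Among them was the 3R density ratio above the median score, from 50 bp and in the series list. The series list holds shared peaks only, so agreement has no value in it. No paired analysis was possible because there is 1 ChIP group and the single input library was not used. With depth unknown, the difference in list length between replicates cannot be weighed.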

Other observations

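Very high scores made up a larger share of replicate 2 peaks beside the centromeres of 2L and 3L. A score over 10, a limit chosen after the scores were seen, was found for 14 of 256 replicate 2 peaks there, or 5.47% (95% exact interval 3.02 to 9.01), against 1.38% (1.06 to 1.77) in the rest of the 4 arms. They comprised 6 of 59 peaks on 2L (10.2%, against 1.66% in the rest), 4 of 42 on 3L (9.52% against 0.943%), 3 of 94 on 3R (3.19%, interval 0.663 to 9.04, against 1.79%) and 1 of 61 on the X (1.64% against 1.14%), so that 3R and the X showed no clear excess. Of the 14, 5 were shared with replicate 1, as were 23 of the 61 such peaks in the rest. In replicate 1 only 3 of 372 peaks scored over 10, or 0.806% against 0.476%, and all 3 were shared. The highest score of the whole replicate 2 list, 644, belonged to a 3 bp peak of the X stretch at 21502571 to 21502573 that replicate 1 did not call, and the second highest of that list was 119.96. The unshared replicate 2 peaks at 23118971 to 23119058 and 23707970 to 23708066 on 3L scored 24.1 and 21.02.

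Many peaks carried exactly the same score as another peak of their arm and list. This held for 92.0% (83.4 to 97.01) of replicate 1 peaks beside the X centromere, against 74.9% in the rest of the X, and for 82.0% (70.02 to 90.6) of replicate 2 peaks, against 64.9%. On 3R the shares were 67.1% against 69.1% and 46.8% against 53.7%. The replicates went opposite ways on the other arms. On 2L the shares were 71.6% against 61.7% and 33.9% against 44.3%, and on 3L 74.6% against 60.9% and 42.9% against 46.0%. Such ties limit what ranks of the score can show.

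Unshared peaks lay farther from the other library's peaks beside the centromeres. A replicate 1 peak came within 1 kb of 24 of the 74 unshared replicate 2 peaks (32.4%), against 53.2% of 962 in the rest of the 4 arms, and a replicate 2 peak came within 1 kb of 51 of the 195 unshared replicate 1 peaks (26.2%), against 32.4% of 2923. By arm the X stood apart in replicate 1, with 20 of 40 (50%) against 33.1% in its rest, while 3L had 4 of 32 (12.5%) against 34.3%. On 3R, where the density did not differ detectably, the replicate 1 share was 14 of 65 (21.5%) against 32.0%. Its replicate 2 share was 5 of 14 (35.7%) against 56.1%. Lower peak density alone makes such near neighbours rarer, and its part on the other arms was not tested.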
